A study of Mus musculus with 65 samples.

Results

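Retinoic acid is a small signalling molecule made inside cells from vitamin A. Retinol is oxidised to retinaldehyde, retinaldehyde dehydrogenases of the Aldh1a family turn that into retinoic acid, and Cyp26 enzymes break it down. Retinoic acid binds the receptors RARα, RARβ and RARγ, which act on DNA as pairs with an RXR, and the carrier protein Crabp2 is known to bring it to the nucleus. In the nervous system the pathway is best known for patterning the embryo and for promoting differentiation of progenitors. The 9 mouse genes described here were chosen by name for these roles, with earlier results of these data known. Each Ensembl identifier in the count table was matched to its GENCODE symbol. The genes are the synthesis enzymes Aldh1a1, Aldh1a2 and Aldh1a3, the breakdown enzyme Cyp26b1, the carrier Crabp2 and the receptors Rara, Rarb, Rarg and Rxra. All 9 were found among the 31057 features of the table.

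The study measured poly(A) RNA in primary neural stem cells grown from the subventricular zone, the stem cell niche along the lateral ventricle of the adult mouse brain. All cells had the genotype iOSKM, in which doxycycline is designed to turn on the reprogramming factors (OSKM), so untreated controls carried the cassette too. Cells came from 4 old mice of 25 months (2 female, 2 male) and 5 young mice of 3 to 4 months (3 female, 2 male), and each mouse gave 1 library per group. Cells grew on poly-D-lysine and laminin in Neurobasal-A with B27, EGF and bFGF, called stem cell medium below; whether this B27 held vitamin A is not given in the sources used here. For differentiation, medium without EGF and bFGF was given 18 h after plating. Doxycycline was used at 2 µg/ml. The 15 groups, 65 libraries in all, were doxycycline-treated old cells in stem cell medium at 6, 18 and 48 h and in differentiation medium at 6, 18 and 48 h, doxycycline-treated young cells in stem cell medium at 18 h, untreated old and untreated young cells in differentiation medium at 6, 18 and 48 h, and untreated old and untreated young cells in stem cell medium at 18 h. Whether hours in stem cell medium run from plating or from doxycycline is not given in the sources used here. Untreated cells in stem cell medium were thus measured at 18 h only, and they served as the starting point for both untreated time courses.

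The genes lie on 9 chromosomes (mouse build GRCm38, GENCODE M21). Aldh1a1 (ENSMUSG00000053279) is at chromosome 19, 20492715 to 20643465, plus strand. Aldh1a2 (ENSMUSG00000013584) is at chromosome 9, 71215789 to 71296243, plus strand. Aldh1a3 (ENSMUSG00000015134) is at chromosome 7, 66390890 to 66427517, minus strand. Cyp26b1 (ENSMUSG00000063415) is at chromosome 6, 84571414 to 84593908, minus strand, and Crabp2 (ENSMUSG00000004885) at chromosome 3, 87948666 to 87953376, plus strand. The receptor genes are Rara (ENSMUSG00000037992) at chromosome 11, 98927818 to 98974942, plus strand, Rarb (ENSMUSG00000017491) at chromosome 14, 16430839 to 16819156, minus strand, Rarg (ENSMUSG00000001288) at chromosome 15, 102234938 to 102257517, minus strand, and Rxra (ENSMUSG00000015846) at chromosome 2, 27676440 to 27762957, plus strand.

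Promoter sequence was read from RefSeq windows of GRCm38.p6 that span 250 bases before to 50 bases after a start site. Paired RAR and RXR are known to bind direct repeats of a half-site such as AGGTCA. Windows were searched on both strands for any ordered pair of half-sites, each either AGGTCA or the variant AGTTCA or the variant GGTTCA or the variant GGGTCA, with 1, 2 or 5 bases between them. Such a repeat occurred in 193 of 32817 windows of all genes, or 0.588%. Windows existed for 7 of the 9 genes, and 1 of the 7, Rarb, held a repeat: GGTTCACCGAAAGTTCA, which has 5 bases between half-sites and starts 53 bases before the start site. That 5-base spacing occurred in 32 windows of all genes, or 0.0975%. The Rarb promoter is shown because this gene is the textbook retinoic acid target, and the Cyp26b1 promoter because Cyp26b1 had the largest increase of the 9 genes in differentiation medium. Each sequence is the 250 bases before the start site, 5′ to 3′ on the gene's own strand, Rarb at chr14:16575477-16575726 (minus strand) and Cyp26b1 at chr6:84593811-84594060 (minus strand). The Rarb window, the only 1 available for this gene, lies inside the annotated gene, whose minus strand begins at 16819156. Counts per gene do not show which start site was used. Capitals mark the repeat. None of the searched repeats is among the letters shown for Cyp26b1.
Rarb: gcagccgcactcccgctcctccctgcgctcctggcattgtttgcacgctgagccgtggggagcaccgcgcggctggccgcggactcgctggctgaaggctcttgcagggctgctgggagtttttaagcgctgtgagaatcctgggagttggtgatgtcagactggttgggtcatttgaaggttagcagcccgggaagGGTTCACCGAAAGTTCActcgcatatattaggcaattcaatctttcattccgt
Cyp26b1: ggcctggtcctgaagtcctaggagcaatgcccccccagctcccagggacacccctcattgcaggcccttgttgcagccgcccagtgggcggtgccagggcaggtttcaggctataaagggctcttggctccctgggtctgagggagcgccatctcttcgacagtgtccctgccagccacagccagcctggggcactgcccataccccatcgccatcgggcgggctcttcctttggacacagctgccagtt

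Library totals ran between 56483730 and 116835539 counts (median 86693655). Of the 8 neural stem cell markers, Sox2 averaged 224 to 358 CPM over the groups, where CPM are counts scaled to a library of 1000000, and others moved between them. In young cells Nes, an intermediate filament gene, averaged 787, 260 and 123 CPM at 6, 18 and 48 h of differentiation, against 1321 CPM in stem cell medium, and Hes5, a Notch target, 99.3, 110.02 and 41.2 CPM, against 4.95 CPM. The 6 microglia markers summed to 5.73 to 11.3 CPM over the group means, nearly all of it Csf1r (4.62 to 10.7 CPM) and P2ry12 (0.188 to 2.80 CPM), while Aif1, Cx3cr1 and C1qa stayed under 0.05 CPM. The 5 endothelial markers summed to 0.781 to 15.3 CPM, mostly Flt1 (0.501 to 13.8 CPM), with Cldn5 at most 0.0408 CPM. The 7 meningeal fibroblast markers summed to 12.7 to 107 CPM, mostly Pdgfra (2.78 to 103 CPM), which also marks oligodendrocyte precursors, and Foxc1 (2.93 to 12.6 CPM), with Dcn and Lum under 0.03 CPM. Of the reprogramming factor genes, Pou5f1 (Oct4) had 0.168 to 1.39 CPM in the 29 doxycycline-treated libraries and 0 to 0.368 CPM in the 36 untreated libraries, so the ranges over all groups overlapped. In stem cell medium at 18 h it averaged 0.404 CPM with doxycycline and 0.161 CPM without in old cells, and 0.791 and 0.207 CPM in young cells. In old cells at 6, 18 and 48 h of differentiation it averaged 0.325, 0.269 and 0.333 CPM with doxycycline, against 0.0619, 0.124 and 0.184 CPM. Libraries did not overlap in the young cells or in old cells at 6 and 18 h of differentiation. In old cells in stem cell medium at 18 h Klf4 averaged 8.62 ± 0.53 CPM with doxycycline and 8.17 ± 0.69 CPM without, and Myc 161 ± 5.9 and 176 ± 5.4 CPM (SD, n = 4 each). A feature for the cassette's 2A linkers had 10 counts in all treated and 2 in all untreated libraries. Libraries hold RNA of all cells in a well, so fewer cells of a type and less RNA per cell cannot be told apart in any result below.

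The 9 genes differed widely in how much RNA there was to measure. Aldh1a3, Rxra and Aldh1a1 had 226770, 240029 and 141274 counts over the 65 libraries. Rara had 80186, Cyp26b1 29323, Rarg 25280 and Rarb 17775. Crabp2 had 404 counts in 58 libraries, and Aldh1a2 had 42 counts in 16 libraries. A filter on low counts therefore left 7 of the 9 genes in most tests, with Crabp2 joining in the 2 comparisons that involve stem cell medium at 6 h and Aldh1a2 in none. The highest group mean was 1823 times the lowest for Aldh1a3 and 111.5 times for Cyp26b1. For Aldh1a1 the same ratio was 9.09, for Rarb 4.13, for Rara 2.84, for Rarg 2.73 and for Rxra 1.68.

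In both untreated time courses most of the measured genes passed the test (edgeR quasi-likelihood, Benjamini-Hochberg adjusted over all genes, called at adjusted p under 0.05), as did most of all tested genes. Stem cell medium in these time courses, here and for single genes below, is the untreated 18 h group of the same age. Hour and medium thus cannot be told apart in the changes at 6 and 48 h. Against stem cell medium at 18 h, young cells called 4 of 7 genes higher and 2 lower at 6 h of differentiation, where 74.9% of all tested genes were called. At 18 h the young counts were 4 higher and 3 lower (82.6% of all tested genes called), and at 48 h 4 higher and 3 lower (83%). Old cells called 3 higher and 2 lower at 6 h (75.5%), 4 higher and 2 lower at 18 h (82%) and 4 higher and 3 lower at 48 h (82.3%). These shares are near those of all genes, so the counts themselves do not set the 7 genes apart, and the results below are about size and direction. The median log2 fold change of the 7 genes was 0.11, 0.24 and 0.31 at the 3 times in young cells, against 0.03, 0.03 and 0.01 over all tested genes. In old cells it was 0.08, 0.15 and 0.23, against 0.02, 0.03 and 0.02. Each of these medians is the estimate of Rxra, with other genes far above and far below it, so they show no common shift of the 7 genes.

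Aldh1a3, a retinaldehyde dehydrogenase, was the member with the largest fall. In young cells it had 11.5, 11.3, 11.9, 8.95 and 18.9 CPM at 6 h of differentiation, 0.543, 0.629, 0.626, 0.675 and 1.41 CPM at 18 h and 0.293, 0.045, 0.212, 0.243 and 0.194 CPM at 48 h, against 47.0, 49.0, 46.8, 44.1 and 74.3 CPM in stem cell medium. No differentiated library reached the lowest untreated library in stem cell medium at 18 h. In log2 terms the fold changes were −2.03 ± 0.21 (SE, adjusted p = 8.1e-06), −6.05 ± 0.27 (5.1e-09) and −7.99 ± 0.28 (3.2e-10). Old cells had 18.0, 6.21, 15.4 and 12.5 CPM at 6 h, 1.10, 0.338, 0.898 and 0.986 CPM at 18 h and 0.102, 0.336, 0.307 and 0.192 CPM at 48 h, against 78.0, 32.2, 64.8 and 58.5 CPM in stem cell medium. The groups again did not overlap, with log2 fold changes of −2.13 ± 0.41 (adjusted p = 0.0026), −6.07 ± 0.43 (7.7e-06) and −7.92 ± 0.44 (8.8e-07). The fall went on within differentiation at both ages. In young cells, 18 h against 6 h gave a log2 fold change of −4.04 ± 0.29 and 48 h against 18 h one of −1.98 ± 0.39, and in old cells the same steps gave −3.95 ± 0.45 and −1.85 ± 0.40.

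Aldh1a1, the second retinaldehyde dehydrogenase with a clear signal, moved the other way. Young cells had 35.8, 31.1, 34.8, 39.3 and 33.4 CPM at 6 h of differentiation, 55.5, 46.4, 55.4, 45.8 and 57.8 CPM at 18 h and 22.6, 18.1, 25.7, 16.0 and 27.2 CPM at 48 h, against 5.40, 5.66, 6.86, 5.88 and 4.91 CPM in stem cell medium. Every differentiated library was above every untreated library in stem cell medium at 18 h, and the level was highest at 18 h of differentiation. Fold changes on the log2 scale were 2.64 ± 0.09 (adjusted p = 2.4e-11), 3.24 ± 0.10 (5.1e-12) and 1.97 ± 0.15 (1.1e-07). Old cells had 38.1, 38.4, 34.2 and 36.7 CPM at 6 h, 47.0, 37.0, 45.6 and 40.7 CPM at 18 h and 20.9, 18.4, 19.2 and 16.4 CPM at 48 h, against 6.03, 10.2, 5.87 and 6.79 CPM in stem cell medium. These groups did not overlap with stem cell medium either (log2 fold changes 2.38 ± 0.17, 2.61 ± 0.18 and 1.44 ± 0.17; adjusted p at most 2.9e-05). In stem cell medium at 48 h only doxycycline-treated old cells were measured, with 26.4 to 30.8 CPM. Between 18 and 48 h of differentiation Aldh1a1 fell in young cells (log2 fold change −1.27 ± 0.15) and in old cells (−1.2 ± 0.09), again without overlap. Aldh1a1 has a close copy in the mouse, Aldh1a7, and how the authors' counting treated reads shared between the pair is not given in the sources used here. Aldh1a7 itself had 4.09 ± 0.63 CPM at 6 h of differentiation, against 0.92 ± 0.028 CPM in stem cell medium (young, SD, n = 5 each; log2 fold change 2.18 ± 0.12), and was back at 0.92 ± 0.14 CPM at 18 h.

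Aldh1a2, the main embryonic retinaldehyde dehydrogenase, was close to absent. Its highest group mean was 0.0336 CPM, from 12 counts in doxycycline-treated old cells in stem cell medium at 6 h. No read was counted in 7 of the 15 groups, which at 3 counts over a group allows up to 0.00986 CPM in the shallowest of them. That limit takes counts as independent and would be higher if both mates of a pair were counted. No difference in Aldh1a2 was detectable at this depth.

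**Figure D1:**
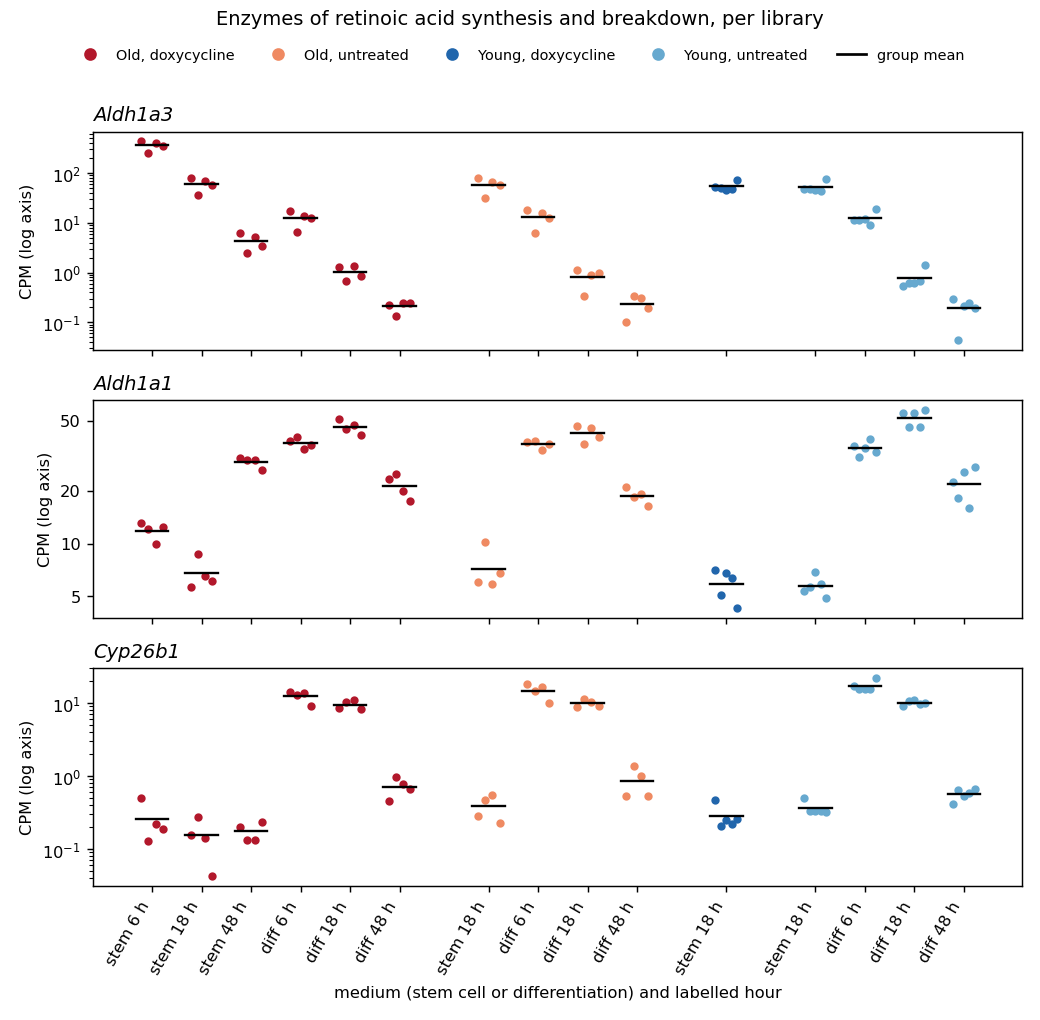
Levels of the synthesis enzymes Aldh1a1 and Aldh1a3 and of the breakdown enzyme Cyp26b1 in every library, in TMM-scaled CPM on a log axis, by medium and hour; points are libraries, 4 per old and 5 per young group, and bars are group means. Aldh1a3 is highest in stem cell medium at 6 h and lowest at 48 h of differentiation, while Aldh1a1 and Cyp26b1 are higher at 6 and 18 h of differentiation than in stem cell medium.

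Seen per kilobase of the deposited gene length, the synthesis enzymes changed places. For Rarb that length equals all its 5265 annotated exon bases, so it need not be the length of an expressed transcript. Aldh1a3 made up 27.5% ± 6.5, 1.55% ± 0.59 and 0.97% ± 0.52 of the summed Aldh1a1, Aldh1a2 and Aldh1a3 level at 6, 18 and 48 h of differentiation in young cells, against 90.3% ± 2.4 in stem cell medium (SD, n = 5 each). In untreated old cells it made up 26.9% ± 8.6, 2.00% ± 0.72 and 1.34% ± 0.61, against 88.2% ± 7.5 (SD, n = 4 each). Lowest and highest library did not overlap between any of these differentiation groups and untreated stem cell medium of the same age, measured at 18 h. The summed level itself was 9.79, 10.7 and 4.49 CPM per kilobase at 6, 18 and 48 h in young cells, against 12.5 CPM per kilobase in stem cell medium, and 10.3, 8.81 and 3.84 in old cells, against 14.1.

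**Figure D2:**
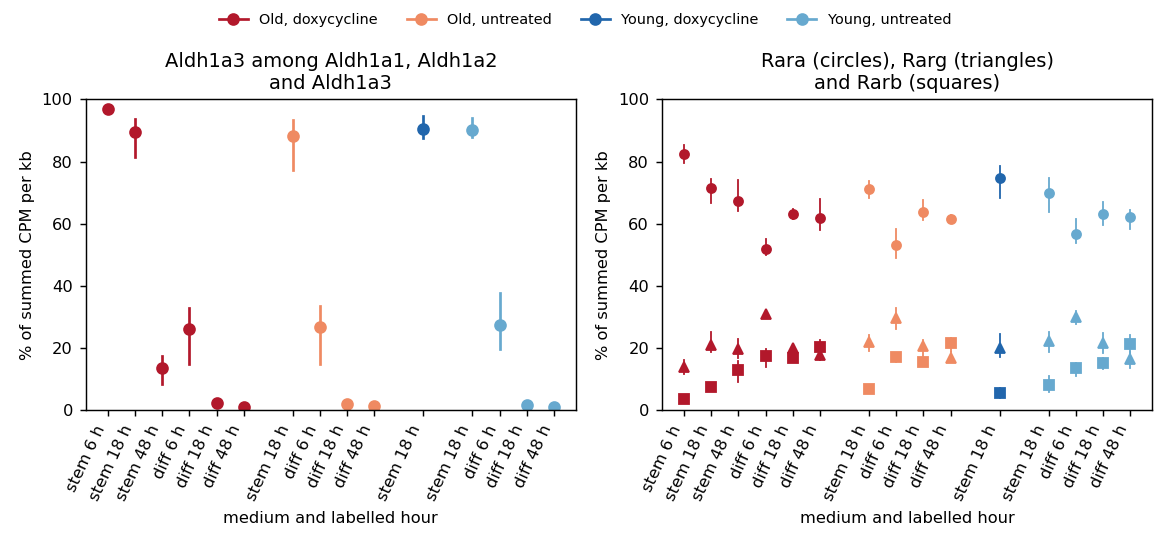
Share of Aldh1a3 in the summed Aldh1a level per kilobase, and shares of Rara, Rarb and Rarg in the summed RAR level per kilobase, in percent, for each of the 15 groups; markers are means over 4 old or 5 young libraries and lines run between the lowest and highest library. Aldh1a3 makes up 96.8% in stem cell medium at 6 h and 0.97% to 1.34% at 48 h of differentiation.

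Cyp26b1, which inactivates retinoic acid by oxidation, was nearly silent in stem cell medium and rose in a transient wave. Young cells had 17.2, 15.5, 15.5, 15.3 and 21.95 CPM at 6 h of differentiation, 9.10, 10.5, 10.98, 9.74 and 10.1 CPM at 18 h and 0.418, 0.652, 0.529, 0.583 and 0.665 CPM at 48 h, against 0.492, 0.328, 0.335, 0.333 and 0.319 CPM in stem cell medium. The 6 and 18 h libraries stood clear of stem cell medium, and the 48 h libraries overlapped it. The log2 fold changes were 5.60 ± 0.15 at 6 h (48.6-fold, adjusted p = 3.2e-12), 4.86 ± 0.12 at 18 h (29.0-fold, 7.3e-14) and 0.70 ± 0.21 at 48 h (1.62-fold, 0.0075). Old cells had 18.1, 14.4, 16.5 and 9.98 CPM at 6 h, 8.89, 11.5, 10.4 and 9.13 CPM at 18 h and 0.532, 1.37, 1.0 and 0.539 CPM at 48 h, against 0.285, 0.475, 0.553 and 0.228 CPM in stem cell medium, with the same pattern of overlap. Their log2 fold changes were 5.28 ± 0.29, 4.73 ± 0.21 and 1.21 ± 0.38 (adjusted p = 2.9e-07, 1.2e-09 and 0.011). From 18 h on, Cyp26b1 fell: 48 h against 18 h gave −4.17 ± 0.12 in young and −3.56 ± 0.27 in old cells, with no overlap. It had already been lower at 18 h than at 6 h in young cells (−0.77 ± 0.10) and in old cells (−0.56 ± 0.18, adjusted p = 0.024, libraries overlapping). The old result between 6 and 18 h was lost when the old mouse numbered 1 or 3 was left out (adjusted p = 0.12 and 0.088).

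Crabp2, the carrier, stayed under 0.12 CPM in every group mean but 1. That group was doxycycline-treated old cells in stem cell medium at 6 h, with 0.394, 0.190, 0.156 and 0.162 CPM from 74 counts. Doxycycline-treated old cells in stem cell medium at 18 h had 0.0906, 0, 0.119 and 0.0423 CPM. All of the 18 h libraries were below all of the 6 h libraries, with a log2 fold change of −1.81 ± 0.64 (adjusted p = 0.029), which did not hold without old mouse 1, 2 or 4 (adjusted p = 0.088, 0.050 and 0.091).

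The receptor genes moved by less than the enzymes. Rara, which encodes RARα and is found in most tissues, was lower in differentiation at every time. Young cells had 9.41, 10.04, 10.2, 10.95 and 13.7 CPM at 6 h, 11.7, 13.4, 12.6, 13.6 and 13.1 CPM at 18 h and 9.30, 9.18, 7.63, 10.9 and 9.15 CPM at 48 h, against 16.9, 16.1, 13.5, 20.9 and 23.2 CPM in stem cell medium. The 48 h libraries were all below stem cell medium, while at 6 and 18 h single libraries overlapped. In log2 terms the fold changes were −0.71 ± 0.14, −0.44 ± 0.12 and −0.93 ± 0.14 (adjusted p = 0.00076, 0.0048 and 5.6e-05). Old cells averaged 9.36 ± 1.12, 13.5 ± 0.59 and 9.07 ± 0.53 CPM at the 3 times, against 17.1 ± 1.0 CPM in stem cell medium (SD, n = 4 each), with no overlap and log2 fold changes of −0.84 ± 0.09, −0.29 ± 0.06 and −0.85 ± 0.07. Rara was higher at 18 h than at 6 h and then lower again at 48 h: 18 h against 6 h gave 0.53 ± 0.08 in old cells (adjusted p = 5.5e-05), with no overlap, and 0.24 ± 0.09 in young cells (0.025), with overlap. The step between 18 and 48 h gave −0.59 ± 0.06 in old and −0.50 ± 0.08 in young cells, both without overlap. The young result between 6 and 18 h missed the threshold without young mouse 1, 2, 3 or 4.

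Rarb, the receptor gene whose promoter repeat is printed above, was higher in differentiation than in untreated stem cell medium at 18 h. Old cells had 3.45, 3.64, 3.55 and 3.75 CPM at 6 h, 4.15, 3.70, 4.01 and 4.16 CPM at 18 h and 4.08, 3.9, 3.65 and 3.66 CPM at 48 h, against 1.84, 2.17, 2.13 and 1.83 CPM in stem cell medium. All 12 differentiated libraries were above all 4 in stem cell medium. Fold changes on the log2 scale were 0.88 ± 0.10, 1.05 ± 0.11 and 1.0 ± 0.10 (adjusted p = 6.1e-06, 8.6e-07 and 1.8e-06). Young cells had 3.22, 3.21, 2.57, 3.48 and 2.97 CPM at 6 h and averaged 3.71 ± 0.29 and 3.79 ± 0.24 CPM at 18 and 48 h (SD, n = 5 each), against 2.16, 2.61, 2.82, 2.12 and 2.48 CPM in stem cell medium. Only the 6 h libraries overlapped stem cell medium, and the log2 fold changes were 0.37 ± 0.11, 0.65 ± 0.11 and 0.68 ± 0.10 (adjusted p = 0.0091, 4.9e-05 and 3.0e-05). The young 6 h result was lost without young mouse 1 or 4 (adjusted p = 0.054 and 0.062). Between 18 and 48 h Rarb differed by 0.02 ± 0.09 (95% interval −0.15 to 0.18) in young cells and by −0.08 ± 0.09 (−0.25 to 0.09) in old cells, neither called. Rarb was also higher at later hours in stem cell medium, with means of 1.07, 2.10 and 3.43 CPM at 6, 18 and 48 h in doxycycline-treated old cells. Medium and hour thus cannot be told apart in the untreated 6 and 48 h results. Of the 5265 exon bases of Rarb, 1793 are shared with exons of Top2b on the opposite strand, a gene with 2043661 counts here. Whether counting used strand is not given in the sources used here.

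Rarg, which encodes RARγ, did not pass the test at 6 h and was lower at 48 h at both ages. Young cells averaged 5.57 ± 0.30 CPM at 6 h of differentiation, 4.33 ± 0.65 CPM at 18 h and 2.38 ± 0.47 CPM at 48 h, against 5.55 ± 0.90 CPM in stem cell medium (SD, n = 5 each). The log2 fold changes were 0.04 ± 0.10 (95% interval −0.16 to 0.23), −0.31 ± 0.12 (adjusted p = 0.034) and −1.18 ± 0.15 (4.2e-06). At 48 h the 5 libraries had 2.12, 1.88, 2.21, 3.07 and 2.60 CPM, all below the 5 in stem cell medium. Old cells averaged 5.09 ± 0.53, 4.28 ± 0.55 and 2.44 ± 0.33 CPM, against 5.15 ± 0.87 CPM (SD, n = 4 each), and the log2 fold changes were 0.01 ± 0.13, −0.22 ± 0.13 (adjusted p = 0.14) and −1.02 ± 0.14 (2.4e-05). The young 18 h result did not hold without young mouse 2, 4 or 5 (adjusted p = 0.069, 0.10 and 0.12), and the old one passed the threshold without old mouse 4 (0.038).

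Rxra, the partner receptor for all 3 RARs, had the smallest range. Young cells averaged 44.0 ± 1.8, 47.7 ± 0.99 and 50.2 ± 4.1 CPM at 6, 18 and 48 h of differentiation, against 41.7 ± 0.84 CPM in stem cell medium (SD, n = 5 each), with log2 fold changes of 0.11 ± 0.04, 0.24 ± 0.03 and 0.31 ± 0.05 (adjusted p = 0.017, 2.0e-06 and 5.6e-05). At 18 and 48 h no young library overlapped stem cell medium. The 6 h result missed the threshold without young mouse 1, 3 or 4. Old cells averaged 42.0 ± 3.0, 43.3 ± 2.0 and 45.4 ± 2.9 CPM, against 40.4 ± 2.3 CPM (SD, n = 4 each), with 0.08 ± 0.06 (adjusted p = 0.21; 0.047 with mice as blocks), 0.15 ± 0.05 (0.019) and 0.23 ± 0.05 (0.0017). The 18 h result was lost without old mouse 2 or 3 (adjusted p = 0.095 and 0.057), and old libraries overlapped at all 3 times.

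**Figure D3:**
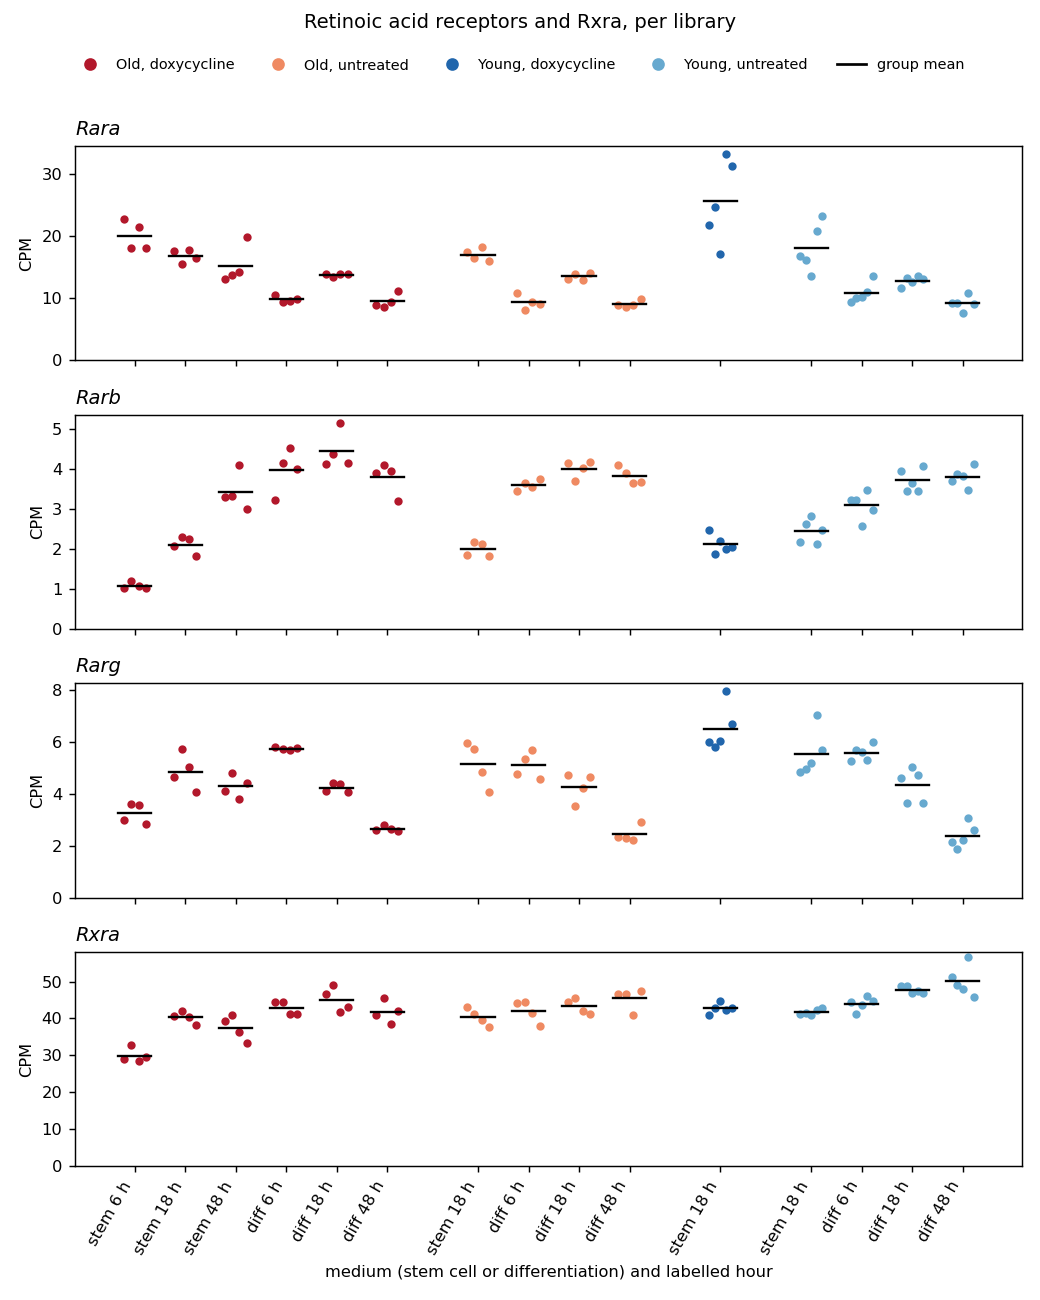
Levels of Rara, Rarb, Rarg and Rxra in every library, in TMM-scaled CPM on linear axes that start at 0, by medium and hour; points are libraries and bars are group means. Rarb sits lowest in stem cell medium at 6 h (1.07 CPM) and above 3 CPM in the means of all differentiation groups, while Rxra spans 29.9 to 50.2 CPM over the group means.

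Steps within differentiation were tested as well. For 18 h against 6 h, 4 of 7 genes were higher and 3 lower in young cells (66.5% of all tested genes called), and 2 were higher and 2 lower in old cells (67.7%). For 48 h against 18 h, 0 were higher and 5 lower in young cells (56.9% of all tested genes called, 29.2% as lower), and likewise in old cells (56.5% called, 28.5% as lower). The 5 were Aldh1a1, Aldh1a3, Cyp26b1, Rara and Rarg at both ages, with Rarb and Rxra uncalled. The old and young comparisons have no libraries in common. Without young mouse 1 the young count for 18 h against 6 h was 4, with Rara, Rarb and Rxra lost, and without old mouse 3 the old count was 2, with Aldh1a1 and Cyp26b1 lost.

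Per kilobase, the leading gene changed with the medium. Among the 9 genes Aldh1a3 ranked first in 5 of the 6 groups in stem cell medium, all but 48 h, with 77.9 ± 18 CPM per kilobase in doxycycline-treated old cells at 6 h and 11.3 to 13.1 CPM per kilobase in the group means at 18 h. It did not differ from the second, Rxra, beyond the spread of libraries in untreated old cells. At 6 h of differentiation Rxra and Aldh1a1 came first with overlapping libraries (8.05 ± 0.32 and 7.07 ± 0.61 CPM per kilobase in young cells). At 18 h Aldh1a1 was on top, clear of Rxra in young cells (10.6 ± 1.1 and 8.74 ± 0.18) and overlapping it in old cells (8.63 ± 0.93 and 7.93 ± 0.37). By 48 h Rxra led in all 3 groups, clear of Aldh1a1. Crabp2 and Aldh1a2 filled the lowest ranks in most groups, and Aldh1a3 joined them at 48 h of differentiation.

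Among the RARs, Rara held the largest share of the summed level per kilobase in all 15 groups. In young cells it made up 56.5% ± 3.0, 63.1% ± 3.1 and 62.2% ± 2.8 at 6, 18 and 48 h of differentiation, against 69.8% ± 3.9 in stem cell medium. Rarb made up 13.5% ± 1.9, 15.1% ± 1.5 and 21.4% ± 2.7, against 8.07% ± 2.1 (SD, n = 5 each). Its share was thus highest at 48 h, where Rara and Rarg were at their lowest level. Rxra over the summed RARs per kilobase averaged 1.85 ± 0.16, 1.87 ± 0.09 and 2.72 ± 0.20 in young differentiation, against 1.32 ± 0.19.

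The genes also differed between hours within stem cell medium, measured in doxycycline-treated old cells. No untreated cells were measured at 6 or 48 h in this medium, so time and doxycycline exposure cannot be told apart here. Between 18 and 6 h, 3 of 8 tested genes were higher and 4 lower (61.3% of all tested genes called), and between 48 and 18 h, 2 of 7 were higher and 1 lower (52.3%). Aldh1a3 had 432, 248, 409 and 349.5 CPM at 6 h, 80.6, 35.9, 68.3 and 57.9 CPM at 18 h and 6.14, 2.51, 5.30 and 3.44 CPM at 48 h. Each later group lay wholly below the one before, with log2 fold changes of −2.55 ± 0.30 (adjusted p = 0.00025) and −3.78 ± 0.39 (0.000265). Aldh1a1 had 13.1, 12.1, 9.94 and 12.4 CPM at 6 h, 5.69, 8.73, 6.54 and 6.12 CPM at 18 h and 30.8, 29.8, 29.9 and 26.4 CPM at 48 h, so it was lowest at 18 h. Its log2 fold changes were −0.79 ± 0.14 (adjusted p = 0.00065) and 2.13 ± 0.12 (8.9e-07). Aldh1a3 accordingly made up 96.8% ± 0.90, 89.5% ± 5.5 and 13.5% ± 4.1 of the summed Aldh1a level per kilobase at the 3 times. The exchange was thus also seen in medium that kept EGF and bFGF, where 48 h was measured with doxycycline only.

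Rarb was higher at each later time in stem cell medium. It had 1.01, 1.2, 1.07 and 1.01 CPM at 6 h, 2.06, 2.29, 2.25 and 1.82 CPM at 18 h and 3.28, 3.33, 4.10 and 3.00 CPM at 48 h, with no overlap between neighbours. In log2 terms the fold changes were 0.98 ± 0.13 (adjusted p = 6.9e-05) and 0.72 ± 0.13 (0.00051). Rarg (0.59 ± 0.12) and Rxra (0.45 ± 0.05) were also higher at 18 h than at 6 h, while Rara was lower (−0.24 ± 0.09, adjusted p = 0.036, not held without old mouse 1 or 3). Between 48 and 18 h none of these 3 was called, though Rara was lower without old mouse 4 (−0.29, adjusted p = 0.0085). Cyp26b1 had no such wave: its means were 0.261 ± 0.17, 0.153 ± 0.095 and 0.176 ± 0.051 CPM at 6, 18 and 48 h (SD, n = 4 each), and neither step was called (adjusted p = 0.29 and 0.70).

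Differentiation medium was also set against stem cell medium at the same hour label, with doxycycline in both arms. Where hours in stem cell medium start is not given, so the same label may not mean the same time in culture. At 6 h, 5 of 8 genes were higher and 3 lower (80.7% of all tested genes called), at 18 h 4 of 7 higher and 2 lower (81.5%), and at 48 h 2 of 7 higher and 4 lower (76.9%). Cyp26b1 had 14.2, 12.8, 13.8 and 9.08 CPM in differentiation medium, against 0.507, 0.127, 0.223 and 0.186 CPM in stem cell medium at 6 h, 51.0-fold apart with no overlap (log2 fold change 5.67 ± 0.32, adjusted p = 1.4e-07). It was higher at 18 h (6.0 ± 0.28) and, by less, at 48 h (2.05 ± 0.31), where differentiation medium had 0.454, 0.966, 0.783 and 0.655 CPM, against 0.203, 0.134, 0.132 and 0.234 CPM in stem cell medium. Aldh1a3 was lower at all 3 hours (−4.79 ± 0.37, −5.81 ± 0.36 and −4.35 ± 0.35). Aldh1a1 was higher at 6 h (1.70 ± 0.09) and 18 h (2.81 ± 0.13). At 48 h the order was the other way round, with 23.2, 24.9, 19.9 and 17.4 CPM in differentiation medium, against 30.8, 29.8, 29.9 and 26.4 CPM in stem cell medium (−0.41 ± 0.10, adjusted p = 0.0033, no overlap).

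Of the receptors at the same hour label, Rarb had the largest estimated difference at 6 and 18 h and the smallest at 48 h. At 6 h it had 3.22, 4.13, 4.51 and 3.98 CPM in differentiation medium, against 1.01, 1.2, 1.07 and 1.01 CPM in stem cell medium, 3.78-fold apart with no overlap (log2 fold change 1.92 ± 0.13, adjusted p = 4.7e-08). The difference was 1.12 ± 0.12 at 18 h, and at 48 h 0.18 ± 0.12 (95% interval −0.05 to 0.42), which was not called. Rara was lower at the 3 hours (−1.0 ± 0.09, −0.25 ± 0.06 and −0.64 ± 0.14). Rarg was higher at 6 h (0.86 ± 0.09), uncalled at 18 h (−0.15 ± 0.11) and lower at 48 h (−0.65 ± 0.10). Rxra was higher at each hour (0.56 ± 0.05, 0.20 ± 0.05 and 0.20 ± 0.06), the last lost without old mouse 4 (adjusted p = 0.068). Crabp2 was lower at 6 h (−1.40 ± 0.53, adjusted p = 0.0285), a result lost without old mouse 1 or 2 (0.18 and 0.081).

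**Figure D4:**
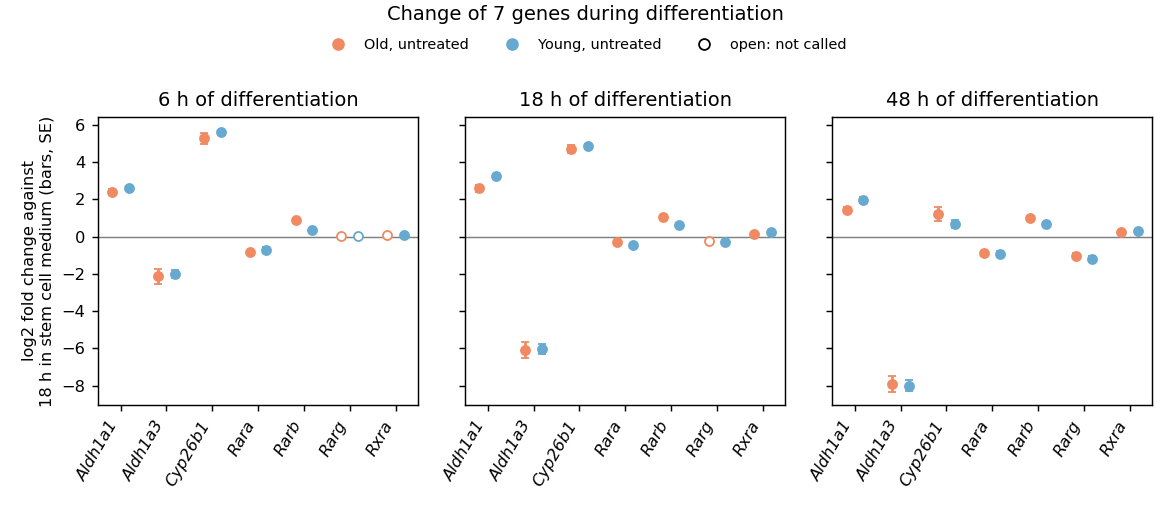
Log2 fold changes of the 7 genes tested in differentiation medium against stem cell medium at 18 h, at 6, 18 and 48 h, for untreated old and untreated young cells; points are edgeR estimates, bars their standard errors, and open points mark changes that did not pass the test. Aldh1a3 falls to −7.99 in young cells at 48 h, and Cyp26b1 peaks at 5.60 in young cells at 6 h.

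Doxycycline changed few of these genes by more than the spread of the mice. With treated and untreated libraries taken as separate samples, 0 of 7 genes were called in old cells in stem cell medium at 18 h (0.018% of all tested genes called), in young cells in stem cell medium at 18 h (0.0361%) or in old cells at 6, 18 and 48 h of differentiation (0.0294%, 0.0118% and 0.0296%). At an unadjusted p under 0.05 the counts were 1, 1, 0, 0 and 1, and DESeq2 and limma called 0 in each. The libraries come in pairs from 1 mouse, however, and with mice as blocks 1, 2, 1, 0 and 1 genes passed, where 11.2%, 13.6%, 3.67%, 0.883% and 4.15% of all tested genes did.

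Cyp26b1 was lower with doxycycline in all 4 old mice in stem cell medium. The treated libraries had 0.155, 0.274, 0.143 and 0.0423 CPM, 52 counts in all, against 0.285, 0.475, 0.553 and 0.228 CPM in the untreated ones, 132 counts in all. The groups overlapped, while each mouse moved the same way. The log2 fold change was −1.32 ± 0.47 without blocks (adjusted p = 0.48) and −1.36 with blocks (0.012). In young cells the treated libraries had 0.470, 0.205, 0.249, 0.221 and 0.256 CPM, against 0.492, 0.328, 0.335, 0.333 and 0.319 CPM in the untreated ones. They were lower in 5 of 5 mice, but by less. The difference was not called either way (−0.35 ± 0.27, adjusted p = 0.56, and −0.39 with blocks, 0.325). Whether this response differed between the ages was tested as an interaction and not called for Cyp26b1. That held without blocks (0% of all tested genes called) and with blocks (3.43%). At 6 h of differentiation Cyp26b1 was again lower in 4 of 4 old mice, with 14.2, 12.8, 13.8 and 9.08 CPM treated, against 18.1, 14.4, 16.5 and 9.98 CPM untreated (−0.24 ± 0.21, adjusted p = 0.79; −0.23 with blocks, 0.019). Whether the response in stem cell medium differed from that at 18 h of differentiation was tested as an interaction and not called (1.26 ± 0.43, adjusted p = 0.36; 0.00566% of all tested genes called).

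Rara was higher with doxycycline in all 5 young mice. Treated libraries had 21.9, 24.7, 17.2, 33.3 and 31.4 CPM, against 16.9, 16.1, 13.5, 20.9 and 23.2 CPM untreated. The groups overlapped because the mice differ in level, with mouse 3 lowest in both. The log2 fold change was 0.50 ± 0.21 without blocks (adjusted p = 0.33) and 0.49 with blocks (2.0e-05). Old mice showed no such shift, with 17.6, 15.5, 17.8 and 16.6 CPM treated, against 17.4, 16.5, 18.3 and 16.1 CPM untreated (−0.01 ± 0.06, 95% interval −0.13 to 0.12). The difference between the ages, old minus young, was −0.51 ± 0.25 without blocks (adjusted p = 0.575, 0% of all tested genes called) and −0.50 with blocks (0.0019, 3.43% called). Rarg was also higher in 5 of 5 young mice, with 6.0, 5.81, 6.05, 7.96 and 6.68 CPM treated, against 4.85, 4.95, 5.20, 7.05 and 5.70 CPM untreated (0.22 ± 0.12, adjusted p = 0.395; 0.23 with blocks, 0.0205). Rxra at 48 h of differentiation was lower in 4 of 4 old mice (41.7 ± 2.9 CPM treated, 45.4 ± 2.9 CPM untreated, SD, n = 4 each; −0.13 with blocks, adjusted p = 0.049). Aldh1a1, Aldh1a3 and Rarb were called in none of the 5 contrasts with or without blocks.

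**Figure D5:**
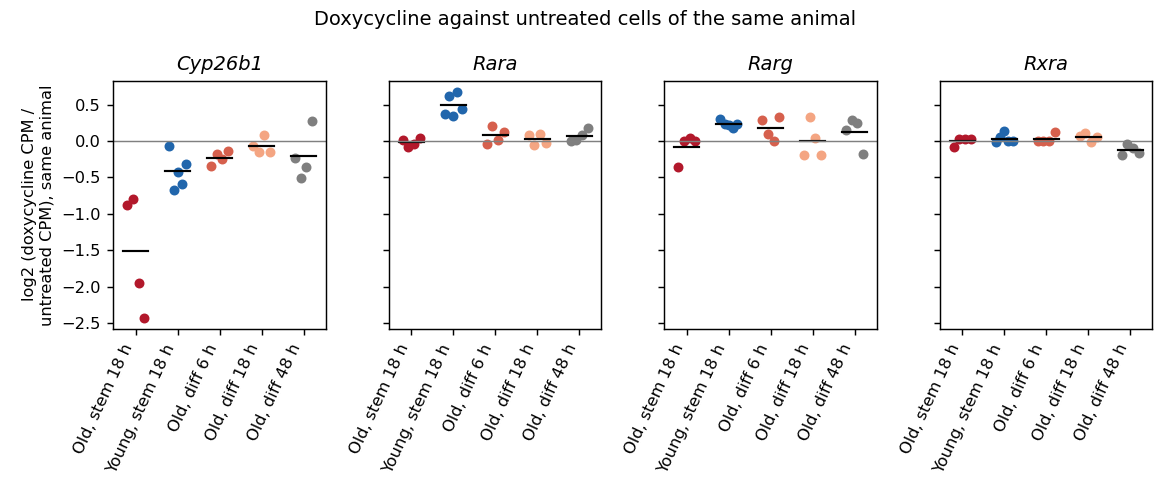
Log2 ratio of doxycycline-treated over untreated level within each mouse for Cyp26b1, Rara, Rarg and Rxra, in each setting that has both arms; each point is 1 mouse, black bars are means over mice and the grey line at 0 marks equal levels. Rara lies above 0 in 5 of 5 young mice, and Cyp26b1 lies below 0 in 4 of 4 old and 5 of 5 young mice in stem cell medium at 18 h.

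Few of these genes passed a test between the ages. Among untreated cells 0 of 7 genes were called between old and young in stem cell medium (5.95% of all tested genes called), at 6 h (1.43%), at 18 h (5.19%) or at 48 h of differentiation (10.6%). At an unadjusted p under 0.05 the counts were 1, 1, 2 and 0, and limma called 0 in each. DESeq2 called 1, Aldh1a1 at 18 h, with 47.0, 37.0, 45.6 and 40.7 CPM in old cells, against 55.5, 46.4, 55.4, 45.8 and 57.8 CPM in young cells (log2 fold change −0.28 ± 0.09; adjusted p = 0.13 in edgeR and 0.017 in DESeq2). The libraries overlapped. Rxra at 18 h had 44.5, 45.6, 42.0 and 41.3 CPM in old cells, against 48.7, 48.8, 46.9, 47.3 and 46.8 CPM in young cells, with no overlap (−0.12 ± 0.04, adjusted p = 0.094).

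With doxycycline in both arms, 1 of 7 genes was called between old and young cells (8.24% of all tested genes called). This was Rarg, with 4.63, 5.71, 5.02 and 4.05 CPM in old cells, against 6.0, 5.81, 6.05, 7.96 and 6.68 CPM in young cells (−0.42 ± 0.12, adjusted p = 0.048). The groups did not overlap, but the call was lost with sex in the model (0.071) and when any mouse but old mouse 2 or young mouse 2 was left out (0.050 to 0.14). Rara averaged 16.9 ± 1.0 CPM in old cells (SD, n = 4) and 25.7 ± 6.7 CPM in young cells (SD, n = 5), and was not called (−0.61 ± 0.19, adjusted p = 0.0825) except in DESeq2 (0.020) or without young mouse 3 (0.011).

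Whether differentiation changed the genes by different amounts in old and young cells was tested directly. The interaction called 0 of 7 genes at 6 h (0.0454% of all tested genes called), at 18 h (0.818%) and at 48 h (3.85%). At an unadjusted p under 0.05 the counts were 1, 2 and 2. Old minus young, the log2 change of Rarb at 6 h differed by 0.51 ± 0.15 (adjusted p = 0.48) and that of Aldh1a1 at 18 h by −0.61 ± 0.20 (0.15 in edgeR, 0.037 in DESeq2). For Cyp26b1 at 6 h the difference was −0.31 ± 0.34, with a 95% interval of −0.98 to 0.35. For Aldh1a3 at 48 h it was 0.08 ± 0.64 (−1.17 to 1.32), so differences of over 1 log2 unit between the ages lie inside the interval.

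Single mice kept their rank for some genes across groups. Old mouse 2 had the lowest Aldh1a3 in 9 of the 10 old groups and the highest Rxra in 8 of 10. Its Rara was the lowest in 7 of 10. Young mouse 5 had the highest Aldh1a3 in 4 of the 5 young groups. Differences between mice in Aldh1a3 thus recurred across groups.

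Other pathway genes were taken from a list of 59 symbols in 4 overlapping classes, all found in the table. Of the 59, 36 reached 1 CPM in a group mean and 16 stayed under 0.1 CPM in every group. The silent ones were mostly genes known to respond to retinoic acid in embryos, where 12 of 21 stayed under 0.1 CPM, among them Hoxa2 and Hoxb4 of the Hox clusters. Against stem cell medium, young cells called 22 of 37 tested pathway genes higher and 4 lower at 6 h of differentiation, 20 of 36 higher and 9 lower at 18 h and 20 of 37 higher and 12 lower at 48 h, where 74.9%, 82.6% and 83% of all tested genes were called. Old cells gave 20 of 37 and 5, 21 of 36 and 9, and 18 of 37 and 12, where 75.5%, 82% and 82.3% of all tested genes were called. These counts are near those shares and do not set the list apart. The median log2 fold change of the list was 0.21, 0.34 and 0.35 in young and 0.18, 0.37 and 0.28 in old cells, beside 0.01 to 0.03 over all tested genes. Of the genes known to respond to retinoic acid, 5 of 7 tested were higher and 1 lower at 6 h at both ages, 4 of 7 higher and 2 lower at 18 h, and at 48 h 5 of 8 higher and 3 lower in young and 4 of 8 higher and 3 lower in old cells, with the same shares of all genes called.

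Dhrs3, which reduces retinaldehyde back to retinol and is itself a known retinoic acid target, was higher at all 3 times. It averaged 2.57 ± 0.78, 10.1 ± 2.0 and 13.6 ± 0.71 CPM at 6, 18 and 48 h of differentiation in young cells, against 0.21 ± 0.11 CPM in stem cell medium (SD, n = 5 each). Fold changes on the log2 scale were 3.6 ± 0.30, 5.59 ± 0.24 and 6.0 ± 0.20, and in old cells 4.12 ± 0.19, 6.05 ± 0.16 and 6.01 ± 0.13. Dhrs3 thus stayed high at 48 h, where Cyp26b1 was low. At 48 h doxycycline-treated old cells had 13.1 ± 1.6 CPM in differentiation medium, against 0.238 ± 0.065 CPM in stem cell medium (5.83 ± 0.16).

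The carrier Crabp1, which holds retinoic acid in the cytoplasm, fell. It had 0.231 ± 0.10 CPM at 18 h, against 5.49 ± 1.7 CPM in stem cell medium in young cells (log2 fold change −4.54 ± 0.29), and 0.184 ± 0.19 against 3.91 ± 1.8 CPM in old cells (−4.26 ± 0.70). Rdh13, of the retinol dehydrogenase family, was lower at 6 h (13.8 ± 0.85 CPM, against 24.5 ± 1.1 CPM in young cells; −0.80 ± 0.06). Bco2, which cleaves carotenoids, was higher at 6 h (3.65 ± 0.41 CPM, against 1.01 ± 0.11 CPM in young cells; 1.88 ± 0.12). Rdh10, which makes retinaldehyde, was lower at 6 h (−0.32 ± 0.06) and then higher at 48 h than at 18 h (22.2 ± 0.82 and 14.1 ± 0.66 CPM in young cells; 0.63 ± 0.05).

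Among other receptors and cofactors, Rxrg, a second RXR, rose for a time. Young cells had 2.20 ± 0.59 CPM at 18 h, against 0.0347 ± 0.009 CPM in stem cell medium (log2 fold change 5.98 ± 0.29), and old cells 3.86 ± 1.3 against 0.0578 ± 0.028 CPM (6.06 ± 0.35). At 48 h it was lower than at 18 h, with 0.266 ± 0.10 CPM in young and 0.307 ± 0.023 CPM in old cells (−3.07 ± 0.26 and −3.66 ± 0.25). Zfp423, a zinc finger protein known as an RAR cofactor, had 53.5 ± 3.5 CPM at 48 h, against 9.73 ± 0.82 CPM in stem cell medium in young cells (2.50 ± 0.06), and 51.5 ± 3.6 against 10.4 ± 0.32 CPM in old cells (2.37 ± 0.06). Tbl1xr1, part of the corepressor complex, was lower at 18 h (77.7 ± 4.1 CPM, against 137 ± 6.4 CPM in young cells; −0.77 ± 0.05).

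Within stem cell medium, the pathway list had 12 of 36 genes higher and 10 lower at 18 h against 6 h and 12 of 36 higher and 7 lower at 48 h against 18 h, in doxycycline-treated old cells, where 61.3% and 52.3% of all tested genes were called. Dhrs9, a short-chain dehydrogenase that can oxidise retinol, had 0.0716 ± 0.063 CPM at 18 h, against 3.66 ± 1.3 CPM at 6 h (log2 fold change −5.66 ± 0.47), so it shared the early high point of Aldh1a3. Rdh11, a retinaldehyde reductase, had 57.5 ± 3.4 CPM at 18 h, against 111 ± 7.6 CPM at 6 h (−0.93 ± 0.05). Aldh1a7 had 3.44 ± 0.57 CPM at 48 h, against 0.936 ± 0.15 CPM at 18 h (1.89 ± 0.16), next to the Aldh1a1 increase at the same step. Doxycycline changed 0 pathway genes in the 5 contrasts without blocks, and 5, 4, 3, 1 and 1 with blocks, in the order used above, where 11.2%, 13.6%, 3.67%, 0.883% and 4.15% of all tested genes passed with blocks.

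Between the ages, the test called 0 of 35 genes of the pathway list in untreated stem cell medium (5.95% of all tested genes called), 0 of 37 at 6 h (1.43%), 1 of 35 at 18 h (5.19%), 8 of 36 at 48 h (10.6%) and 2 of 36 in doxycycline-treated stem cell medium (8.24%). At 48 h, 1 was higher and 7 lower in old cells. The orphan receptor gene Nr2f2 had 2.35 ± 0.75 CPM in old cells, against 4.72 ± 0.90 CPM in young cells (log2 fold change −1.0 ± 0.23, adjusted p = 0.026, lost without old mouse 4 or young mouse 1). The homeobox genes Meis1 (51.4 ± 3.1 CPM old, 63.8 ± 4.6 CPM young; −0.30 ± 0.05, adjusted p = 0.0074) and Meis2 (101 ± 2.9 CPM old, 118 ± 6.3 CPM young; −0.21 ± 0.04, 0.0078) kept their calls without any single mouse. Retsat, a retinol saturase, was lower in old doxycycline-treated cells (11.8 ± 1.0 CPM, against 15.2 ± 0.75 CPM in young; −0.36 ± 0.07, adjusted p = 0.0093).

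The genes most like the enzymes in pattern were found by Pearson correlation of the logged group means (log2 of CPM + 0.1) over the 15 groups, among 12747 genes with a group mean of at least 5 CPM, as a description; groups of 1 age share their mice. For Aldh1a3 they were S100a10 (r = 0.996), Ercc3 (0.995) and Ahnak2 (0.993). S100a10 spanned 10.3 to 532 CPM with its top in stem cell medium at 6 h, as for Aldh1a3, while Ercc3 spanned only 36.1 to 59.2 CPM. For Aldh1a1 they were Sox3 (0.971), Zc3h6 (0.969) and Frat2 (0.967), with Sox3, a transcription factor of neural progenitors, at 51.3 to 243 CPM. For Cyp26b1 they were Zfp426 (0.985), Ist1 (0.982) and Eef2k (0.975), whose levels spanned far less than those of Cyp26b1 (Zfp426 32.7 to 48.1 CPM).

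Markers of other cell types moved with these results. The 6 genes of the pericyte and smooth muscle list summed to 178 CPM (114 to 218 over libraries), 42.1 CPM (28.1 to 53.6) and 4.88 CPM (4.43 to 5.36) at 6, 18 and 48 h in stem cell medium with doxycycline in old cells, which is the order of Aldh1a3. In young cells they summed to 22.8, 7.08 and 9.24 CPM at 6, 18 and 48 h of differentiation, against 65.5 CPM in stem cell medium. Acta2 (139 CPM) and Tagln (38.1 CPM) made up most of the 6 h level in stem cell medium. Of the pericyte markers, Rgs5 (at most 0.555 CPM) and Kcnj8 (at most 0.0484 CPM) stayed low in every group mean. Pdgfrb averaged 0.0339, 0.0776 and 3.18 CPM at 6, 18 and 48 h of differentiation in young cells, against 0.0527 CPM in stem cell medium, and in untreated old cells 4.77 CPM at 48 h, against 0.0284 CPM. The endothelial sum was 6.16, 2.40 and 0.996 CPM in young differentiation, against 15.3 CPM in stem cell medium, and the meningeal sum 24.8, 103.6 and 106 CPM, against 14.0 CPM. The 7 astrocyte markers summed to 2433, 4723 and 6991 CPM (group means) at the 3 times in young cells, against 1335 CPM in stem cell medium, and the 6 markers of myelinating oligodendrocytes to 636, 780 and 1392 CPM, against 138 CPM. Their part in the changes of the retinoid genes was not tested.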

How the data were processed

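Poly(A) RNA was sequenced in paired-end mode from 65 libraries of cultured mouse neural stem cells. The counts are whole reads per gene as deposited; per the submitters' processing notes, the authors used Trim Galore 0.6.6, STAR 2.7.10b, SAMtools and Subread with build mm10. The deposited log2-scale values are the authors' variance-stabilised counts, and DESeq2 1.40.1 stands in the same notes. Whether counting used strand is not given in the sources used here. Values of 2 occurred 75644 times and values of 1 19963 times, as when both mates of a pair are counted, so counts exceed the number of fragments.

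Levels are CPM with TMM scaling over all libraries, whose totals ran between 56483730 and 116835539 counts. Each comparison was fitted on its own groups with edgeR 4.0.16 (R 4.3.3; quasi-likelihood test, TMM, expression filter with a minimum count of 10), and p-values were Benjamini-Hochberg adjusted over all tested genes with a threshold of 0.05. The 46 features without a GENCODE M21 name stayed in the fits. Fold changes are given ± SE, 95% intervals are normal intervals from the SE, and levels are mean ± SD. For edgeR the SE was derived from the test, as the absolute log2 fold change divided by the square root of the F statistic. Intervals and floors (3 counts) cover counting or model error only. The fits were tested on simulated counts.

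Replicates are mice. Libraries of 1 age with the same number come from the same mouse, per the labels; over 20 comparisons and 12747 genes the median correlation of same-mouse deviations was 0.395 to 0.769 (lowest single pair 0.239). The fit without mice as blocks is the one reported, with the blocked value beside it where the call changes. Labelled sex matched the data in 65 of 65 libraries, and 0 library pairs were identical. Alternatives were RLE size factors, DESeq2 1.42.0, no expression filter, limma 3.58.1 on the deposited values, mice as blocks, sex as a covariate, and leaving out each mouse.

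The 9 genes, the pathway list and the 71 markers in 12 lists were chosen with earlier results of these data known. All 9 genes are named, and of other pathway genes up to 3 per direction and comparison, by size of change among called genes with a group mean of at least 1 CPM. Some genes that this rule names are not reported here. Genes of like pattern are the 3 of highest correlation, for those of the 9 genes whose group means vary at least 4-fold and reach 5 CPM.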

Additional observations from a re-analysis of the deposited data

Results flagged for a closer look

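In 11 of 128 sets of 4 or 5 libraries of 1 gene, 1 library stood apart from the others of its group by Dixon's criterion; chance alone gives about 1 in 20. Young mouse 5 was the high library for Aldh1a3 in 3 groups. It had 73.1 CPM with doxycycline in stem cell medium at 18 h (the others 46.2 to 52.8), 74.3 CPM untreated in that medium (44.1 to 48.97) and 1.41 CPM at 18 h of differentiation (0.543 to 0.675). The same mouse had 21.95 CPM of Cyp26b1 at 6 h of differentiation (15.3 to 17.2). Young mouse 1 had the high Cyp26b1 library in stem cell medium at 18 h, with 0.470 CPM treated (0.205 to 0.256) and 0.492 CPM untreated (0.319 to 0.335). It also held the only Aldh1a2 reads of its group at 6 h of differentiation (0.0271 CPM, 2 counts). With no count in the other libraries, any such library is flagged by this criterion.

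Among old mice, mouse 1 had 0.394 CPM of Crabp2 with doxycycline in stem cell medium at 6 h (0.156 to 0.190), the group in which Crabp2 was highest. Rara was 19.96 CPM in mouse 4 with doxycycline in stem cell medium at 48 h (13.1 to 14.2) and 13.4 CPM in mouse 2 with doxycycline at 18 h of differentiation (13.86 to 13.9). Rxra was 41.1 CPM in untreated mouse 3 at 48 h of differentiation (46.6 to 47.4).

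The Rara response to doxycycline in stem cell medium at 18 h differed between the ages with mice as blocks (old minus young −0.50 on the log2 scale, adjusted p = 0.0019 in edgeR), and was not called without blocks (0.575).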

How the results depend on the processing

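Of 2265 recomputed fold changes of the 9 genes, 2207 kept direction and call, 41 lost the call, 17 gained one and 0 reversed; of 980 for the named pathway genes, 42 lost the call. DESeq2 called 1 of the genes between ages at 18 h of differentiation (0 in edgeR), 2 in doxycycline-treated stem cell medium (1 in edgeR) and 1 in the age interaction at 18 h (0). Sex in the model gave 0 in that treated comparison. With mice as blocks, doxycycline called 1 in old and 2 in young cells in stem cell medium, 1 at 6 h and 1 at 48 h of differentiation, and the interaction of doxycycline with age called 1, against 0 in each without blocks; besides Rxra in old cells at 6 h, blocks changed no other call of the 9 genes. Comparisons between ages could not be fitted with blocks, since each mouse has 1 age. Leaving out 1 mouse gave 4 to 6 genes for 18 h against 6 h in young cells (7 with all), 2 to 5 in old cells (4) and 0 to 1 for old against young with doxycycline (1). The cause was not tested.

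Over all genes, the 5 doxycycline contrasts called 3, 6, 5, 2 and 5 genes without blocks, 1863, 2260, 625, 150 and 701 with blocks and 120, 237, 88, 44 and 90 in DESeq2; without the filter the first 4 called 6, 10, 10 and 5, and limma called 8 and 4 at 6 and 18 h of differentiation. Age called 994, 246, 880, 1815 and 1381 genes (stem cell medium, 6, 18 and 48 h, treated stem cell medium), and 2008, 732, 1590, 2747 and 2404 in DESeq2. Its interactions with differentiation called 8, 145 and 686, and 17, 666 and 1483 in DESeq2 (29 at 6 h with blocks). The interaction of doxycycline with age called 0 (589 with blocks, 3 in DESeq2) and with medium 1 (18 and 120). Without the filter Rxra in young cells at 6 h (adjusted p = 0.0894) and Cyp26b1 in old cells at 18 h against 6 h (0.0576) missed the threshold. Crabp2 and Aldh1a2 are limited by depth, with 404 and 42 counts in all.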
